A study of Physcomitrium patens with 10 samples.

Results

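The miR319 family of the moss Physcomitrium patens was followed through drying and rewetting of gametophores, the leafy shoots of the plant. Its members are the 7 miRNA names beginning with miR319, out of 280 names measured. The rule for membership is the name and uses no measured value. Small RNAs were sequenced from shoots grown on BCD medium, a mineral medium for moss, in 5 states. HD shoots were hydrated, MDH shoots mildly to moderately dehydrated and SDH shoots severely dehydrated, that is desiccated, while PRE and FRE shoots had been rewetted to partial and to full recovery. The sample titles give 2 replicates per state, 10 samples in all, but the treatment field names another state than the title for 7 of them, and the titles were followed. The labels used here give no strain, transgene, duration or degree of water loss.

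miR319 is an ancient plant miRNA, closely related in sequence to miR159. In Arabidopsis, miR319 directs the cleavage of mRNAs for TCP transcription factors, which restrain cell division in growing leaves, and miR159 acts on GAMYB-like MYB factors. The MIR319 hairpin is unusually long. In Arabidopsis and in this moss it is cut stepwise from the loop towards the base, so that 1 hairpin can release more than 1 short duplex. Numbers after the point in a name tell such duplexes apart, and a star by convention marks the strand that was found less often when the miRNA was named.

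The 7 names comprise 5 without a star (miR319a, miR319b, miR319c, miR319d and miR319e) and 2 with a star (miR319d.1* and miR319d.2*). Which duplex of the miR319d hairpin the plain name miR319d stands for is not stated in the files. All levels are in RPM, reads per 1000000, with 1 value per state that the authors had already made from the replicates. No error, interval or test can therefore be attached to any difference below, and the read depth behind each value is unknown. In whole shoots, fewer cells of a type and less RNA per cell cannot be told apart. RPM is also a share of reads, and the RPM summed over all 280 names ranged from 407334 in PRE to 831487 in HD. Each comparison is therefore also given with the values as shares of the RPM of all names, set to a sum of 1000000 per state, where calls, signs or sizes then differ.

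The family was carried by 1 starred name. miR319d.2* stood at 10045 RPM in HD, then at 6594 in MDH and 6112 in SDH, at 3572 in PRE and finally at 14558 in FRE. Its lowest value was thus in partially rehydrated and its highest in fully rehydrated shoots, 4.08-fold apart. It held 93.5% of the summed family level in HD and 94.6% in FRE, with 89.5%, 92.1% and 88.0% in MDH, SDH and PRE. Among all 280 names it ranked 14 by level in HD, MDH and SDH, 15 in PRE and 9 in FRE. The order of the 5 states for this name was the same with median-of-ratios scaling, which sets the median miRNA about equal between states. As a share of the RPM of all names, HD and MDH changed places.

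The other starred name, miR319d.1*, comes by its name from the other duplex of the same hairpin. It stood at 382 RPM in HD and 388 in MDH, then at 281 in SDH and 208 in PRE, and at 349.6 in FRE. PRE was the lowest state here too, except as a share of all names, where SDH was. The highest was MDH, closely followed by HD in RPM, where the whole range was 1.86-fold. With median-of-ratios scaling MDH stood at 456, HD at 352 and FRE at 350. As a share of all names this miRNA held 0.0770% in MDH and 0.0459% in HD, with SDH alone below HD.

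The names without a star were scarcer and formed a lower and a higher group. miR319a stood at 35.1 RPM in HD and 38.7 in MDH, then at 26.1 in SDH and 34.5 in PRE, and at 49.7 in FRE. miR319b lay within 5.17% of it in every state. miR319c was at 84.0, 103, 63.7, 71.0 and 129.8 RPM in the same states. miR319d differed from miR319c by at most 1.41% and miR319e by at most 5.77%. All 5 plain names were highest in FRE and next in MDH, and all were lowest in SDH, not in PRE like the starred names. As shares of all names miR319b was highest in PRE with FRE next, and miR319a was highest in FRE with PRE next, so MDH followed only after these. By that measure miR319c and miR319e were lowest in HD. Names that follow each other this closely may share reads, which the deposited values cannot settle. The counts and medians below take the 7 names separately, and they weigh this pair and this trio more than once. Names within 10% of each other, taken as 1 value each, leave 4 values. The ratio of miR319c to miR319a stayed between 2.06 in PRE and 2.67 in MDH.

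**Figure D1:**
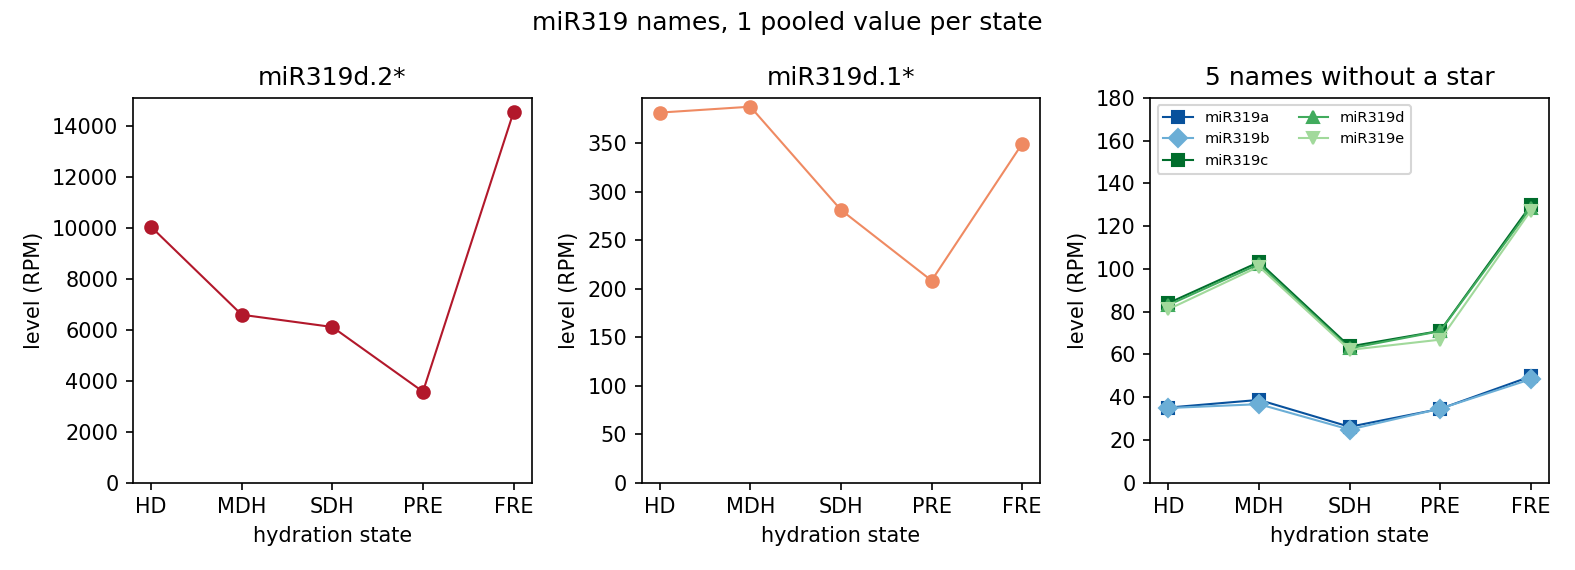
Level in RPM (vertical axes, from 0) of each miR319 name in the 5 states (horizontal axes), 1 pooled value per point, with no error available. miR319d.2* reaches 14558 RPM in FRE after 3572 RPM in PRE, while the 5 plain names run in parallel and are lowest in SDH.

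Summed over the 7 names, the family came to 10745 RPM in HD and, in the dried states, to 7363 in MDH and 6633 in SDH. It came to 4058 RPM in PRE and 15392 in FRE. This order is that of miR319d.2*, which dominates the sum. By summed level the family ranked 8 of 108 families in HD, 9 in MDH and in SDH, 7 in FRE and 13 in PRE. As a share of the RPM of all names it was 1.29% in HD and 1.46% in MDH, then 1.05% in SDH and 0.996% in PRE, and 2.69% in FRE. By either measure FRE was the highest and PRE the lowest, but MDH lay below HD in RPM and above it as a share.

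The first question was how moderate dehydration compared with the hydrated state. miR319d.2* was 1.52-fold lower in MDH, while miR319c was 1.23-fold, miR319d 1.23-fold and miR319e 1.25-fold higher. In RPM miR319a, miR319b and miR319d.1* differed from HD by 10.3%, 5.16% and 1.60%. As shares of all names these same names stood above HD by 0.86, 0.80 and 0.75 on the log2 scale. Calls rest on a 2-fold threshold applied to log2((RPM + 1)/(RPM + 1)), among names with at least 3 RPM in the higher state. None of the 7 names was called, against 11% of 209 names called higher and 24.4% called lower. The family median of this log2 fold change was 0.14 and that of all tested names -0.37. The plain names summed to 318 RPM in HD and 382 in MDH. With median-of-ratios scaling, which moved the median of all names by 0.35, the log2 fold changes were -0.26 for miR319d.2* and 0.64 for miR319c. As shares of all names they were 0.12 and 1.02, so the sign for miR319d.2* depended on the scaling. As shares, 3 of 7 names (miR319c, miR319d and miR319e) passed 2-fold, beside 28.2% of 220 names. With near-identical names taken once the family median was 0.08.

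In desiccated against hydrated shoots all 7 names were lower. The log2 fold changes ran from -0.72 for miR319d.2* to -0.38 for miR319e, with a median of -0.41, beside 0.02 for all tested names. Again none passed 2-fold, against 18.6% of 215 names called higher and 13.5% called lower. miR319d.2* was 1.64-fold and miR319d.1* 1.36-fold lower. With median-of-ratios scaling all 7 remained lower, whereas as shares of all names the 6 names other than miR319d.2* lay between -0.09 and 0.02, and miR319d.2* at -0.31. Near-identical names taken once gave a median of -0.43 over 4 values, all lower.

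In partially rehydrated against hydrated shoots the starred and plain names parted. miR319d.2* was 2.81-fold lower, a log2 fold change of -1.49, and it was the only member called. Of 213 tested names 18.8% were called lower and 21.6% higher, and 14 names had a lower log2 fold change than miR319d.2*. miR319d.1* was 1.83-fold lower. The plain names were close to HD, from 1.01-fold lower for miR319b to 1.21-fold lower for miR319e. With median-of-ratios scaling miR319d.2* was at -1.38 and miR319a and miR319b turned to 0.08 and 0.10. As shares of all names miR319d.2* was at -0.46 and lost its call, and the summed family was at -0.38. The plain names then stood above HD by 0.75 (miR319e) to 1.02 (miR319b) on the log2 scale and miR319d.1* by 0.16, so the direction of these 6 names depended on the scaling. With 1 added to both values none of the 7 was then called. The family median was -0.24 by name and -0.55 with near-identical names taken once, beside -0.19 for all tested names.

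In fully rehydrated against hydrated shoots 6 of the 7 names were higher, all by less than 2-fold. The plain names were 1.39-fold (miR319b) to 1.57-fold (miR319e) higher, and miR319d.2* was 1.45-fold higher. miR319d.1* was the exception at 1.09-fold lower, a difference that shrank to -0.01 on the log2 scale with median-of-ratios scaling and became 0.41 as a share of all names. The family median was 0.54, beside -0.10 for all tested names, of which 15.3% were called higher and 12% lower. Taken as shares of all names, 5 of 7 names passed 2-fold, beside 24.5% of 220 names, and the summed family level did so too, with a log2 fold change of 1.06. The names were miR319a, miR319c, miR319d, miR319e and miR319d.2*. With the miR535 family left out of the total, the summed family held 6.02% in FRE and 3.07% in HD, just short of 2-fold.

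The 4 comparisons above share the hydrated value, so their likeness is no separate evidence. The steps that leave HD out, given next, follow by arithmetic from the same values of 1 per state. They describe other pairs of states and add no separate evidence either. Between moderate and severe dehydration all 7 names were lower in SDH. Their median log2 fold change was -0.55, while the median of all tested names was 0.39. miR319c, miR319d and miR319e were 1.62-fold, 1.63-fold and 1.63-fold lower, and only 7, 6 and 5 of the 207 tested names had a lower log2 fold change. miR319d.2* was nearly level as deposited, at 1.08-fold lower. On the log2 scale it stood at -0.49 with median-of-ratios scaling and at -0.43 as a share of all names. No member passed 2-fold, against 0.966% called lower and 16.4% called higher. With median-of-ratios scaling, which moved the median of all names by -0.40 here, 3 of 7 names (miR319c, miR319d and miR319e) passed 2-fold, against 3.94% of 203 names. The same 3 did so as shares of all names, against 3.69% of 217 names. The median of the 4 values with near-identical names taken once was -0.51.

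On partial rehydration of desiccated shoots miR319d.2* was 1.71-fold and miR319d.1* 1.35-fold lower in PRE than in SDH. The 5 plain names went the other way, from 1.08-fold (miR319e) to 1.40-fold higher (miR319b). None passed 2-fold, against 6.16% of 211 names called higher and 3.32% called lower. Among shares of all names, miR319a and miR319b passed 2-fold, at 1.03 and 1.11 on the log2 scale, beside 23.2% of 228 names called higher. miR319c, miR319d and miR319e stood at 0.78, 0.80 and 0.73, in place of 0.16, 0.18 and 0.11. miR319d.2* was then at -0.15 in place of -0.78, miR319d.1* turned to 0.19, and the summed family was at -0.08 in place of -0.71.

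The step from partial to full rehydration held the largest difference of the family among the 8 comparisons. miR319d.2* was 4.08-fold higher in FRE than in PRE, or 2.03 on the log2 scale, and 2 of 214 tested names lay above it. The plain names were 1.40-fold (miR319b) to 1.90-fold (miR319e) higher and miR319d.1* 1.68-fold higher. Thus 1 of 7 names was called higher, beside 7.01% of tested names, and none lower, beside 9.81%. The family median was 0.85 and that of all names 0.03. On the scale of shares of all names miR319d.2* was at 1.54 and still the only member called, beside 2.2% of 227 names. The other names were then close to PRE or little above it, with -0.01 for miR319b, 0.04 for miR319a, 0.26 for miR319d.1* and 0.37 to 0.44 for the trio.

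Set directly against desiccated shoots, FRE had 4 of 7 names called higher (miR319c, miR319d, miR319e and miR319d.2*) and none lower, beside 15% and 7.01% of 214 names. miR319d.2* was 2.38-fold higher and the trio 2.04-fold to 2.05-fold, just past the threshold, with miR319a and miR319b just short of it at 1.90-fold and 1.95-fold. miR319d.1* was 1.24-fold higher. With median-of-ratios scaling 6 of 7 were called, beside 16.3% of 209 names, and as shares of all names also 6 of 7, beside 16.4% of 225. With a pseudocount of 10 RPM miR319d.2* alone was called, and with near-identical names taken once 2 of 4 values were.

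**Figure D2:**
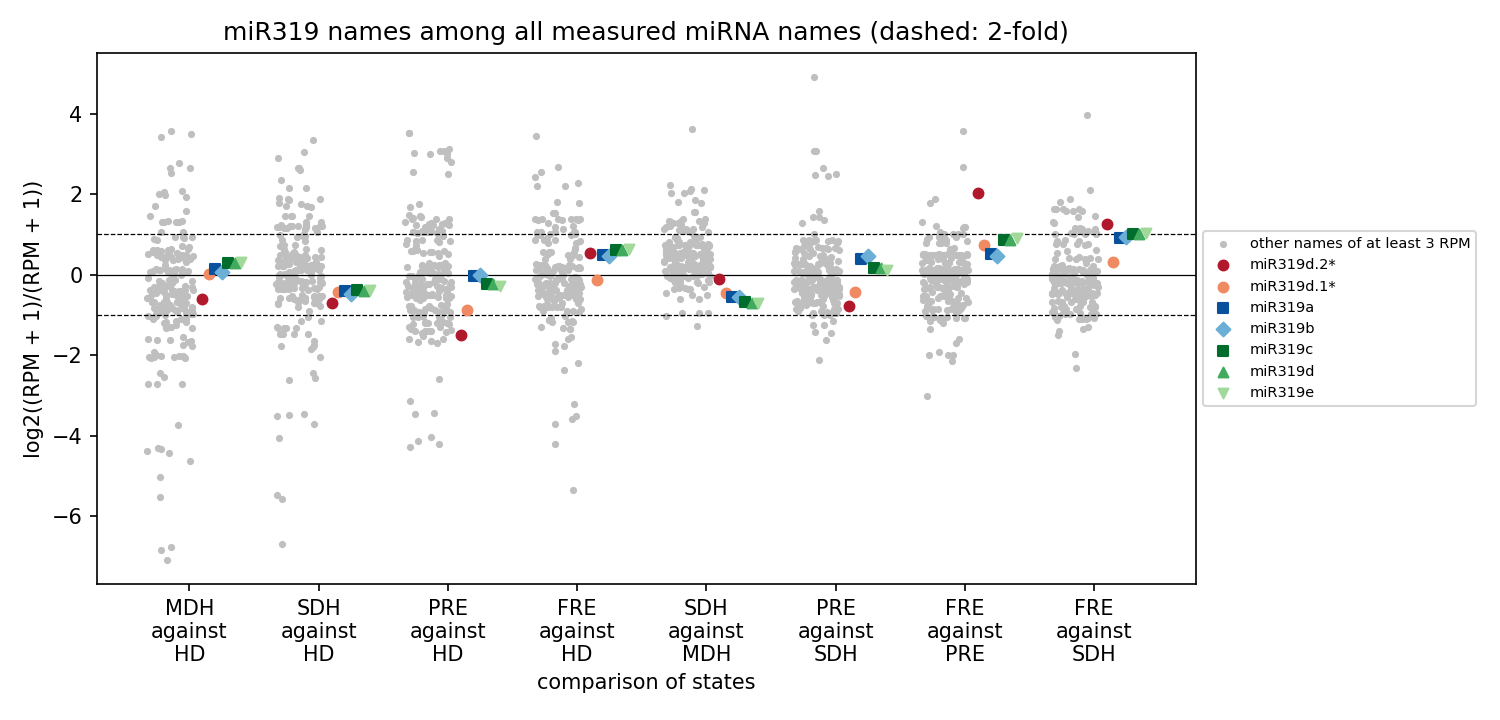
Log2 fold change on the log2(RPM + 1) scale (vertical axis) of the 7 miR319 names (coloured) and of the other names with at least 3 RPM in the higher state (grey, 1 point per name, spread sideways at random) in 8 comparisons. miR319d.2* stands at 2.03 in FRE against PRE and at -1.49 in PRE against HD, and most other coloured points lie between the dashed 2-fold lines.

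A lower threshold shows how the smaller differences were spread. At 1.5-fold, 3 of 7 names were lower in SDH than in MDH, beside 4.83% of tested names. In FRE 5 of 7 were higher than in PRE, beside 15.9%, and 6 of 7 higher than in SDH, beside 20.6%. Against HD, 3 of 7 were higher in FRE beside 22%, and 2 of 7 were lower in PRE beside 27.2%. 1 name, miR319d.2*, was lower at this threshold in MDH (beside 40.7%) and in SDH (beside 21.9%), and in PRE against SDH (beside 20.9%).

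Ratios between names of the miR319d hairpin do not depend on the scaling of a state. The plain name miR319d lay within 1.41% of miR319c and 5.64% of miR319e in every state. If these names share reads, a ratio over miR319d is not one within this hairpin alone. miR319d.2* over miR319d was 121 in HD and 113 in FRE, with 64.5 in MDH, 97.3 in SDH and 50.4 in PRE. The ratio was thus lowest in PRE and next lowest in MDH, and FRE came within 0.09 of HD on the log2 scale. miR319d.1* over miR319d was 4.59, 3.79, 4.48, 2.94 and 2.72 in HD, MDH, SDH, PRE and FRE. This second ratio was low in both rewetted states. Between the starred names, miR319d.2* over miR319d.1* was 26.3 in HD, with 17.0 in MDH and 21.7 in SDH, then 17.1 in PRE and 41.6 in FRE. FRE stood above all other states here. Ligation and amplification differ in yield from sequence to sequence, so the size of such a ratio says less than its difference between states.

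Shifts of this size occurred in other hairpins too. In 16 other hairpins with both arms at 3 RPM or more in every state, the highest ratio between arms exceeded the lowest by a median of 2.02-fold, from 1.13-fold to 7.39-fold. The near-identical miR902c, miR902e and miR902g count as 1 of these. The highest ratio exceeded the lowest by 2.40-fold for miR319d.2* over miR319d, with 5 of the 16 wider, and by 1.69-fold for miR319d.1* over miR319d, with 11 wider. The starred names come by their numbers from different duplexes. Both ratios therefore cannot lie between arms of the same duplex, as those of the other hairpins do, and the comparison is a rough one.

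**Figure D3:**
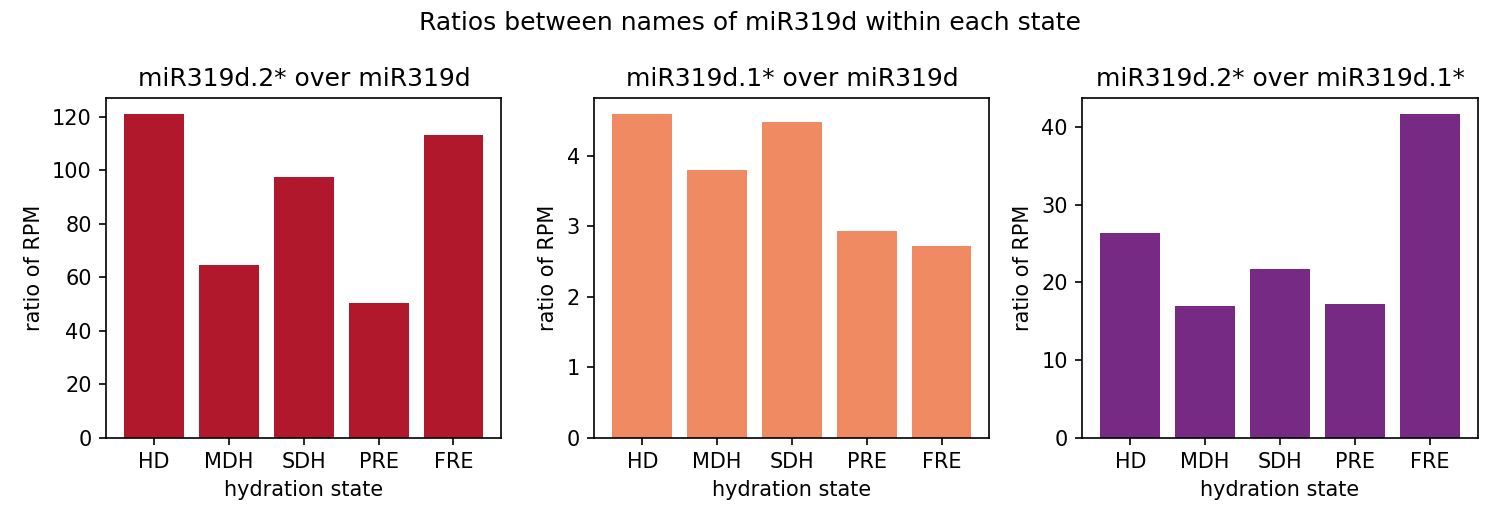
Ratio of RPM between names of the miR319d hairpin (vertical axes, from 0) in each of the 5 states, 1 pooled value per bar. The ratio of miR319d.2* to miR319d is 121 in HD and 50.4 in PRE, and that of miR319d.2* to miR319d.1* is highest in FRE at 41.6.

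The profile of the summed family was compared with that of 173 other names with a mean of at least 10 RPM, by the root mean square difference of log2(RPM + 1) over the 5 states after removal of each name's mean. The nearest was miR1215, at a distance of 0.32, with 43.0 RPM in HD and 39.4 in MDH, then 34.5 in SDH and 31.9 in PRE, and 75.1 in FRE. miR1024a (0.36), miR897 (0.37), miR902c-3p (0.39) and miR902e-3p (0.39) followed. Both miR902 names had nearly the same values and amount to 1 profile. They were highest in HD, at 1796.5 RPM beside 1674.1 in FRE. The same 5 names were nearest to miR319d.2*, at 0.36 to 0.41. Outside the family 181 names reached 10 RPM in some state, and 19 of them were highest in FRE. Of these 19, 3 were lowest in PRE like miR319d.2* and 3 were lowest in SDH like the plain names.

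Other miRNA families, listed as developmental regulators, gave a reference from the same tables. The list held 30 names of miR156 and miR529 (SPL genes), miR166 (HD-ZIP III genes), miR171 (GRAS genes of the SCARECROW-LIKE type in flowering plants), miR534 (BLADE-ON-PETIOLE genes) and miR538. In FRE against PRE none of its 29 tested names was called higher and 2 were called lower, beside 7.01% and 9.81% of all tested names. The median log2 fold change was 0.11, beside 0.85 for miR319. In FRE against HD 3 of 29 were called higher and 5 lower, beside 15.3% and 12% of all tested names. The median was -0.38, beside 0.54 for miR319. In PRE against HD the counts were 3 and 8, beside 21.6% and 18.8%, and the median was -0.50, beside -0.24 for miR319. With median-of-ratios scaling the list medians were, in the same order, 0.12, -0.25 and -0.39, beside 0.86, 0.66 and -0.13 for miR319. List medians as shares of all names are not given. By summed level, miR319 was the only 1 of these 7 families with its highest value in FRE, as deposited, with median-of-ratios scaling and as a share of all names. miR156 was like it in PRE, at 52236 RPM against 132071 in HD, but stayed low in FRE at 56357 RPM, its lowest state as a share of all names. The summed level of miR319 spanned 3.79-fold over the 5 states, that of miR156 2.53-fold and that of miR538 2.46-fold. The spans as shares of all names were 2.70-fold for miR319, 1.67-fold for miR156 and 2.82-fold for miR538. For miR166, miR171, miR529 and miR534 they were 1.36-fold, 2.42-fold, 2.39-fold and 33.4-fold.

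Within that list miR534a led the higher names in MDH, SDH and FRE against HD, with 0.8 RPM in HD beside 18.2, 12.5 and 9.6 RPM. miR529e led in PRE against HD, at 107 against 8.4 RPM, and also in PRE and in FRE against SDH. miR529g, at 41.3 RPM in HD, had the lowest log2 fold change against HD in all 4 states, at 13.5, 15.8, 13.0 and 8.3 RPM. Of the remaining steps, miR538b led in SDH against MDH, at 2335 against 950.5 RPM, and miR166j in FRE against PRE, at 687 against 553 RPM. The lower end was held by miR529e in SDH against MDH and in FRE against PRE, by miR166j in PRE against SDH, and by miR156b in FRE against SDH, at 12903 against 26391 RPM.

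**Figure D4:**
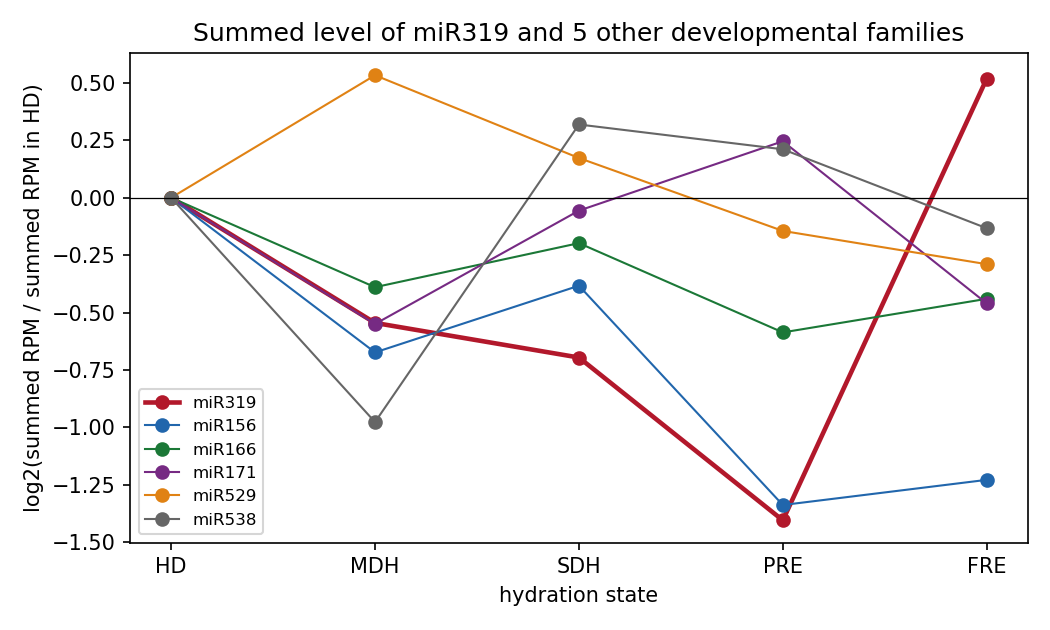
Summed RPM of miR319 and of 5 other families listed as developmental regulators, as log2 of the ratio to the hydrated value (vertical axis), in the 5 states, 1 pooled value per point. miR319, miR156 and miR166 are lowest in PRE, though as shares of all names miR156 is lowest in FRE and miR166 in HD. Of the families drawn miR319 alone lies above its hydrated value in FRE, although as shares of all names miR166, miR171, miR529 and miR538 do so too; miR534, at 0.9 RPM in HD and 9.6 in FRE, is not drawn.

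The authors' deposited tables of the 4 comparisons with HD mark 1 miRNA of this family, miR319d.2* in PRE, with a log2 fold change of -1.49. Such marks were given to 41.9% of 234 names there. In the other comparisons of the authors' deposited tables no member was marked, beside 35.3% of names in MDH, 34.1% in SDH and 27% in FRE. The p-value in the authors' deposited table was under 0.05 for 7 of 7 names in SDH and in FRE, for 5 in PRE and for 4 in MDH. The same held for 81.5% and 76% of all names listed in SDH and FRE, 80.3% in PRE and 80% in MDH, so these counts do not set the family apart. Those p-values follow from the scaled values taken as read counts out of 10000000 in each state, and they hold no spread between replicates.

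**Figure D5:**
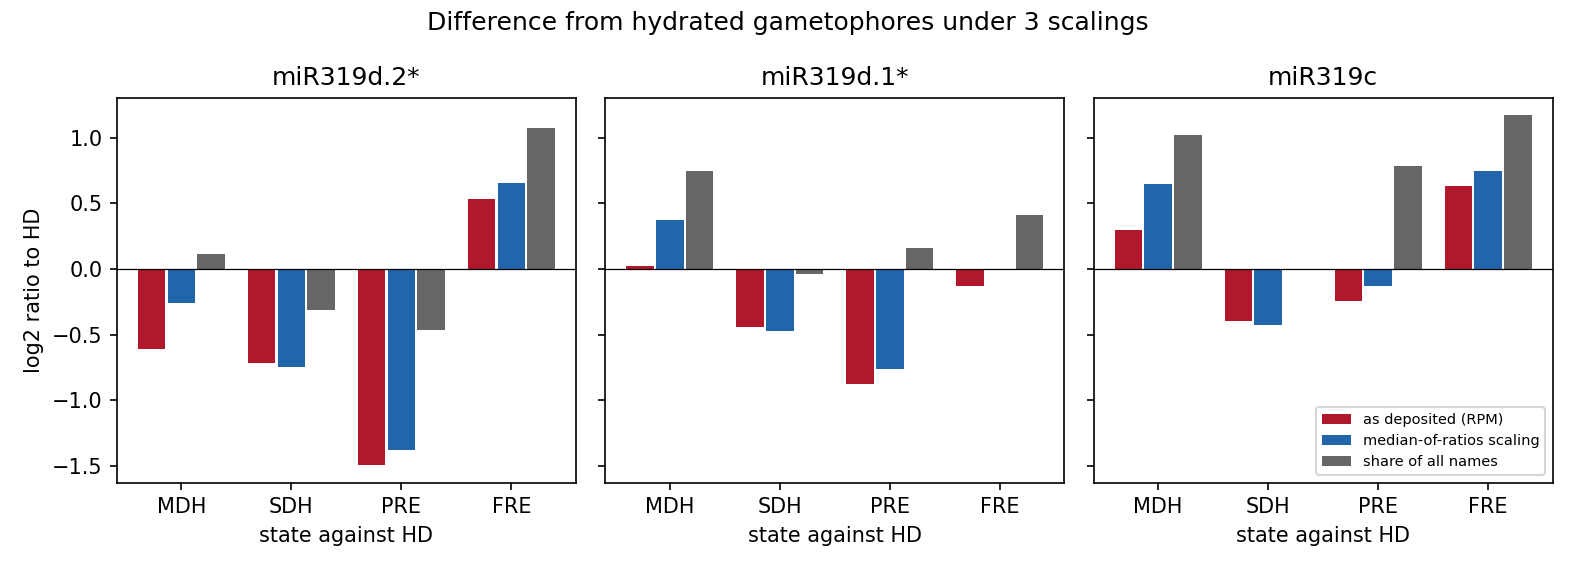
Log2 ratio to the hydrated value (vertical axis, no pseudocount) for miR319d.2*, miR319d.1* and miR319c in the 4 other states, as deposited, with median-of-ratios scaling and as a share of the RPM of all names. For miR319d.2* the sign differs between scalings in MDH alone, and for miR319c the PRE bar turns from -0.24 as deposited to 0.79 as a share.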

How the data were processed

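Per the labels' protocols, libraries were made from RNA of 18 to 30 nt by adding adaptors, reverse transcription and PCR. Not given in the sources used here are the aligner, genome build, miRNA reference, treatment of reads shared by family members and way of combining replicates. The deposited RPM values, in steps of 0.1, give 1 value per state, and the hydrated values were the same in all 4 tables, which were joined by name. The authors' comparison tables add a scaled expression score, since per the file headers and values the total is 10000000 in every group, a deposited log2 fold change and a p-value. Those p-values were recomputed by the Audic-Claverie formula on the scaled values, and all 173, 195, 178 and 199 values above 1e-250 in the MDH, SDH, PRE and FRE tables matched within 1%.

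The designs foresaw a test if values per library existed. As they did not, log2((RPM + 1)/(RPM + 1)) was described over 8 comparisons, with the minimum and threshold given above. The pseudocount understates changes of scarce names. The named miRNAs are all members, the 5 nearest profiles, and the extremes of the developmental list. The arm ratios of other hairpins, the 10% tolerance and the counts as shares of all names were chosen after the values were seen, and members and lists with earlier results of these data known. The calling was run on simulated data with planted changes well past 2-fold and counting noise only. That run checks the code and cannot speak to spread between replicates or to changes near 2-fold. Python 3.11.15, pandas 2.3.3 and scipy 1.17.1 were used.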

Additional observations from a re-analysis of the deposited data

How the results depend on the processing

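Of 144 values of the counts and family values under other settings, 127 kept their side of the 2-fold threshold or stayed within 1.5 times. A threshold of 1.5-fold in place of 2-fold gave, against HD, 1 name in MDH and 1 in SDH, then 2 in PRE and 3 in FRE, 3 in SDH against MDH, 1 in PRE against SDH and 5 in FRE against PRE, as a lower threshold must give as many or more. Median-of-ratios scaling gave 3 in place of 0 names in SDH against MDH. For FRE against SDH, 10 RPM as pseudocount gave 1 name in place of 4, and counting near-identical names as 1 value within 10% gave 2, by construction. As shares of all names, 3, 0 and 5 names passed 2-fold in MDH, PRE and FRE against HD, in place of 0, 1 and 0. The same scaling gave 3 in SDH against MDH and 2 in PRE against SDH, in place of 0 in both. This setting was added for the counts after the values were seen. The summed log2 fold change as a share was -0.38 in PRE and 1.06 in FRE against HD, in place of -1.40 and 0.52. In MDH against HD that sum was -0.55 as deposited and 0.18 as such a share. With the miR535 family left out of the total, the summed family held 3.07% in HD and 2.66% in MDH, with 1.80% in PRE and 6.02% in FRE. A pseudocount of 0 and the 5% tolerance left all counts and sums within those bounds. No minimum and a minimum of 30 RPM, run for the counts, and the authors' marks, run for the 4 counts against HD, did so too. Of 168 values for single names, under pseudocounts of 0 and 10 RPM and median-of-ratios scaling, 160 kept their side of 2-fold. A change of sign within 2-fold counts as kept there, as for miR319a in PRE against HD (-0.02 to 0.08 with median-of-ratios scaling). Shares of all names, which turned the sign of most members in PRE against HD, were not among these settings. No paired analysis was possible because the files hold 1 value per state, so the replicate block and leaving out a replicate were not run. The depth of the libraries is unknown, which limits the precision of the scarcer plain names most.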
